A study of Mus musculus with 2 samples.

Results

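Integrins, laminins and nidogens are the receptors and core proteins that hold epithelia, muscle and vessels to their basement membranes. They were followed here in mouse back skin, with 1 array for a saline control and 1 for an FGF18 treatment. The set was chosen by symbol, taking every integrin α or β chain, every laminin α, β or γ chain, and both nidogens, and leaving out genes whose products only bind an integrin chain. It held 38 of the 22180 genes that could be named on the array, of which 26 encode integrin chains, 10 laminin chains and 2 nidogens. Itga10 had no entry with a single gene name and was not analysed here.

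Both samples were total RNA from skin of male BALB/cAJcl mice at 7 weeks of age. Back hair was removed to start the growth phase of the follicles. FGF18, a fibroblast growth factor, was then injected into the peritoneum at 100 µg, in saline with 5 µg/µl heparin, 6 days after depilation. A γ-ray dose of 6 Gy to the whole body came 24 h after the injection, and skin was taken 4 h after irradiation. The labels give the control only as saline. They do not say whether it received heparin or radiation, when after depilation its skin was taken, or how many mice gave each RNA. The effect of FGF18 thus cannot be told apart from such differences. With 1 array per group there are no replicates and no significance test, and each value below compares these 2 arrays only.

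An integrin is a pair of an α and a β chain that spans the cell membrane and joins an extracellular ligand to the cytoskeleton. A laminin is a trimer of an α, a β and a γ chain, and its trimers form a sheet that nidogen links to a second sheet of collagen IV. Basal keratinocytes and the outer root sheath of the hair follicle rest on laminin-332 and laminin-511, and bind them through integrins α6β4 and α3β1. Muscle, vessels and nerves have their own laminins and receptors, and leukocytes carry integrins with the β2 or β7 chain.

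Intensities are those deposited. A difference is the FGF18 value less the saline value after taking log2(intensity + 1), a scale that understates differences of dim genes. Folds are ratios on the same scale. Intensities of different genes come from different probes and are not compared with each other. The median intensity over the whole array was 14.0 in saline and 13.8 after FGF18. A gene below that median on either array is given by its intensities with no fold, which applied to 12 of the 38 genes, and the other 26 stood above both medians.

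The chains of laminin-511 were 3 of the 4 genes of the set that were at least 1.5-fold higher on the FGF18 array. Lamb1, the β1 chain of many laminins, had an intensity of 38.7 in saline and 63.2 after FGF18, or 1.62-fold higher. Lama5, the α5 chain found under epidermis, follicles and vessels, read 36.9 and 58.6, or 1.57-fold higher. Lamc1, the γ1 chain that most laminins share, read 62.9 and 95.4, or 1.51-fold higher. These are all 3 chains of the α5β1γ1 trimer. Lamb2, the β2 chain that takes the place of β1 in laminin-521 and at muscle synapses, read 40.1 in saline and 38.0 after FGF18, a difference of -0.08. The groups of 1 array each give no spread against which these gaps could be set. Between clusters of probes for the same gene, the standard deviation of such a difference was 0.24 over 319 genes, which covers disagreement between probes and not variation between animals.

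The start regions of these genes are shown because the β1 and β2 chains, which replace each other in the trimer, stood apart. RefSeq (GRCm38.p6) gave a window for 24 of the 38 genes, and Lamc1 had no window in the table. Each line gives the 250 bases before the annotated start of transcription, on the strand of the gene, with capitals for the GC box GGGCGG in either orientation.
Lama5, chr2:180225860-180226109, - strand: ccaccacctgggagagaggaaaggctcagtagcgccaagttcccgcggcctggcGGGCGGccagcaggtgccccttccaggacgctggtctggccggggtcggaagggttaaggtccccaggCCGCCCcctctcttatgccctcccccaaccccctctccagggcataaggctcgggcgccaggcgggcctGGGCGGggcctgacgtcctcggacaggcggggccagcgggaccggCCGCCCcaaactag
Lamb1, chr12:31265043-31265292, + strand: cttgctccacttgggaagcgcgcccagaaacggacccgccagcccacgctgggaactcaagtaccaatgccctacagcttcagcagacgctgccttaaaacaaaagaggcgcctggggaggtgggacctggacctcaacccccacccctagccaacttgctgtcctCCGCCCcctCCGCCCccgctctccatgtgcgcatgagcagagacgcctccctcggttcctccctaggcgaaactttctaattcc
Lamb2, chr9:108479612-108479861, + strand: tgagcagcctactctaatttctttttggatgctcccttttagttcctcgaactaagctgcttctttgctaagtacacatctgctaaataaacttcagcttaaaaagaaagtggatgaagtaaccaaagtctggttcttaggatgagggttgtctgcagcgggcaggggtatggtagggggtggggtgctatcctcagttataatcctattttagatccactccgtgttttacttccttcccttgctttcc
The Lama5 window held 4 GC boxes, the Lamb1 window 2 and the Lamb2 window 0. The share of bases that were G or C was 72.4% for Lama5, 62.0% for Lamb1 and 43.6% for Lamb2. The median share was 52.4% over all 32851 windows of the table and 58.4% over the 27 windows of the set. GC boxes were not particular to these genes. They stood in 32.7% of all windows and in 10 of the 27 windows of the set, and the window of Itga1, another gene at least 1.5-fold higher, held 0. Both strands were searched for 4 further motifs, and no match says only that the letters are absent from the window. CCAAT stood in 33.8% of all windows and in 5 of the 27, TATAAA in 12.4% and in 0, TGANTCA, an AP-1 site, in 6.75% and in 1, and CANNTG, the E-box, in 66.2% and in 22.

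Across the whole set 23 genes were higher on the FGF18 array, 14 were lower and 1 was equal. Of all 22180 genes, 10970 were higher, 10094 lower and 1116 equal. Of the 11090 genes at or above the median level, 62.0% had a difference of 0 or more. Only Lamb1, Lama5, Lamc1 and Itga1 were at least 1.5-fold higher, and 0 were at least 1.5-fold lower. Over all 22180 genes 2.61% passed 1.5-fold upward and 4.15% downward. Over the 11090 genes at or above the median level those shares were 3.64% and 4.63%. No gene of the set reached 2-fold in either direction. Upward and downward, 0.257% and 1.06% of all genes did so, as did 0.379% and 1.65% of genes at or above the median level. The set's median difference was 0.07, beside 0.00 over all genes. Over the 24 genes of the set at or above the median level it was 0.18, beside 0.07 over all genes at that level, and neither gap was tested. The count of 4 depends on the pseudocount, the number added before taking the logarithm. With 16 in place of 1 it was 0, and the differences of Lamb1, Lama5, Lamc1 and Itga1 became 0.53, 0.50, 0.50 and 0.42. After subtraction of the trend of difference on intensity, Lamb1 alone stayed past 1.5-fold, at 0.59.

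**Figure D1:**
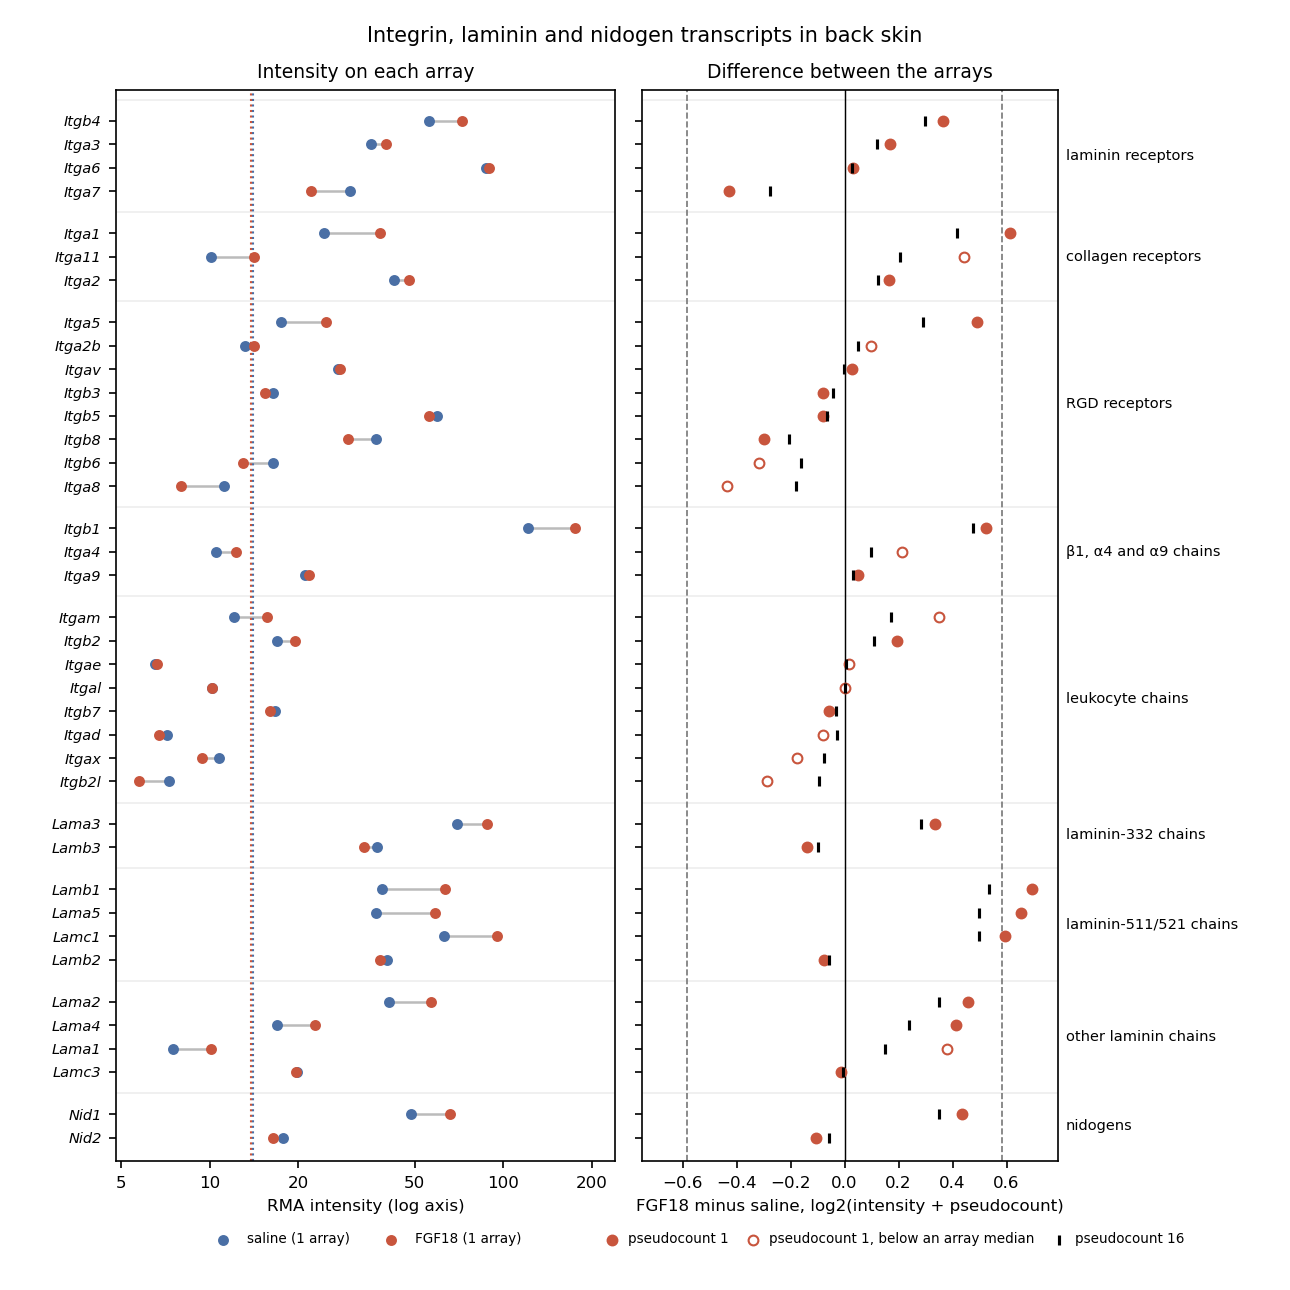
Intensity of each gene on the saline and FGF18 arrays (left, log axis, dotted lines at each array's median) and the difference FGF18 minus saline (right, dashed lines at 1.5-fold), by binding partner. Open circles mark genes below an array's median, and black ticks give the difference with a pseudocount of 16. Lamb1, Lama5, Lamc1 and Itga1 lie to the right of the dashed line with a pseudocount of 1 and left of it with 16.

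The 2 gene families did not sit at the same place. The 10 laminin chains had a median difference of 0.40, with 7 higher and 3 lower. The 26 integrin chains had a median of 0.03, with 15 higher, 10 lower and 1 equal. Of the laminin chains 9 lay at or above the median level over genes, and of the integrin chains 13. The scale understates differences of dim genes, so the families are not compared at like levels. The difference between the families was not tested. In the plot of difference against level, Lamb1, Lama5, Lamc1 and the integrin chain Itga1 lay near the upper edge of the band of all genes. The other higher laminin chains lay further inside it, and the other integrin chains spread over its width.

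**Figure D2:**
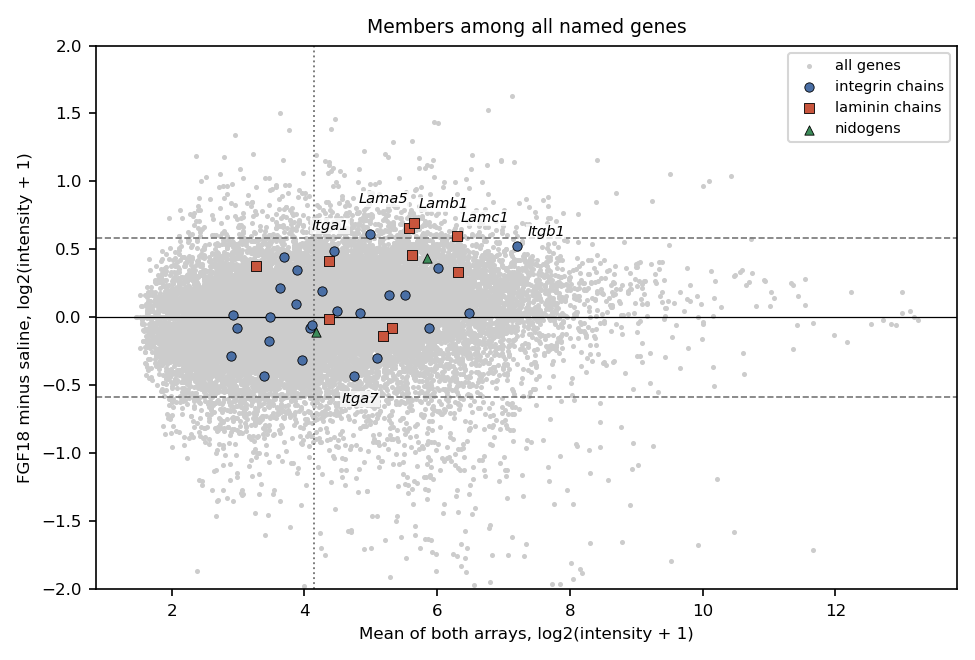
Difference FGF18 minus saline against the mean of both arrays, both on the log2(intensity + 1) scale, for all named genes (grey) and for integrin chains, laminin chains and nidogens. Dashed lines mark 1.5-fold and the dotted line the median level over genes. The axis leaves out 34 genes with larger differences, and the laminin chains Lamb1, Lama5 and Lamc1 sit just above the upper dashed line.

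Among the other laminin chains, those of the dermis, muscle and vessels, Lama2 and Lama4, were higher by less. Lama2, the α2 chain of muscle and nerve basement membranes, read 41.0 in saline and 56.6 after FGF18, or 1.37-fold higher. Lama4, the α4 chain of vessel walls, read 16.9 and 22.9, or 1.33-fold higher. Lama1, the α1 chain of early embryos, lay below both arrays' medians at 7.51 and 10.1. Lamc3, the γ3 chain, was nearly equal at 19.8 and 19.6. The trimers that join α2 or α4 to β1 and γ1 thus had every chain on the higher side, while those with β2 had 1 chain near equal.

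Laminin-332, the anchor of basal keratinocytes at hemidesmosomes, had smaller differences than laminin-511. Lama3, its α3 chain, read 69.6 in saline and 88.2 after FGF18, or 1.26-fold higher. Lamb3, its β3 chain, read 37.2 and 33.6, or 1.10-fold lower. Neither of these chains differed by as much as 1.5-fold, and they lay on opposite sides of 0.

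The nidogens lay on opposite sides as well. Nid1, which binds the laminin γ1 chain and collagen IV, read 48.4 in saline and 65.8 after FGF18, or 1.35-fold higher. It was measured by 2 clusters of probes, both of them higher, at 65.0 and 96.8 in the brighter and 36.0 and 44.6 in the other. Nid2, its close relative, read 17.8 and 16.4, or 1.08-fold lower.

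In the laminin receptors α3β1, α6β4 and α7β1, the β chain had a larger upward difference than its α partner. Itgb1, the β1 chain that pairs with most α chains, read 122 in saline and 175 after FGF18, or 1.44-fold higher. Itgb4, the β4 chain that ties hemidesmosomes to keratin filaments, read 55.9 and 72.2, or 1.29-fold higher. A second cluster, annotated to Itgb4 and B230344G16Rik together and so left out of this value, read 17.0 and 16.3, and with it the difference of Itgb4 was 0.15 instead of 0.37. Itga6, the only partner of β4, was nearly equal at 87.6 and 89.6. Its difference of 0.03 turned to -0.07 after subtraction of the intensity trend. Itga3, the α chain of the other basal laminin receptor, read 35.5 and 39.9, or 1.12-fold higher. Itga7, the laminin receptor of skeletal muscle, went the other way at 30.1 and 22.1, or 1.35-fold lower. It was the lowest of the genes above both array medians. The 5 skeletal muscle markers had a median difference of -0.23, with 4 lower and summed intensities of 3951 in saline and 3406 after FGF18. Their part in the value of Itga7 was not tested. In bulk skin, fewer cells of a type and less RNA per cell cannot be told apart.

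Collagen-binding α chains were all on the higher side. Itga1, the α1 chain that binds collagen IV, read 24.5 in saline and 38.1 after FGF18, or 1.53-fold higher. Itga2, the collagen receptor of basal keratinocytes, read 42.3 and 47.6, or 1.12-fold higher. Itga11, a collagen I receptor of fibroblasts, read 10.1 in saline, below that array's median, and 14.1 after FGF18. Both Itga1 and Itga2 pair with β1, whose difference was 0.52, so the chains of α1β1 had differences of 0.61 and 0.52 and those of α2β1 differences of 0.17 and 0.52.

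**Figure D3:**
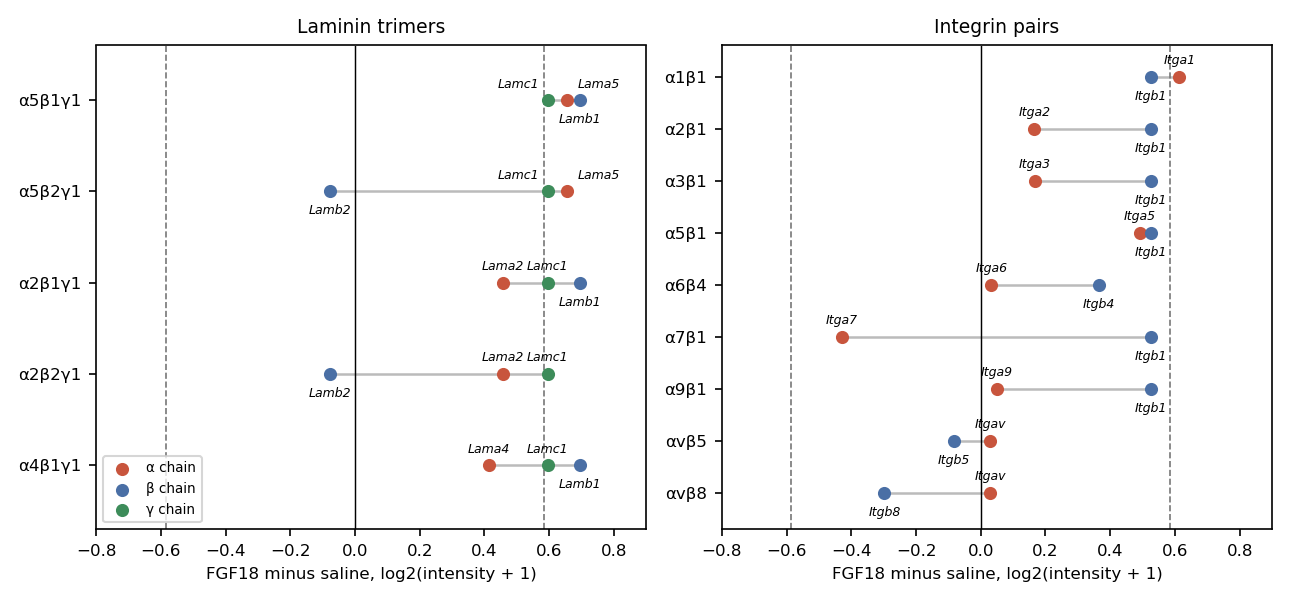
Differences FGF18 minus saline, log2(intensity + 1), of the chains that make up 5 laminin trimers (left) and 9 integrin pairs (right), with lines joining the chains of a complex and dashed lines at 1.5-fold. A chain that belongs to several complexes, such as Itgb1 or Lamc1, appears in each with the same value. All 3 chains of α5β1γ1 lie past 1.5-fold, while Lamb2 and Itga7 lie away from their partners.

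Receptors for the RGD motif of fibronectin, vitronectin and latent TGF-beta had a median difference of -0.08, with 3 of 8 chains higher and 5 lower. Itga5, the fibronectin receptor chain, was the highest, at 17.5 in saline and 25.0 after FGF18, or 1.41-fold higher. Itgav, which pairs with several β chains, was nearly equal at 27.3 and 27.9, and its sign turned with the brighter of its 2 clusters, where it read 116 and 113. Itgb5, its vitronectin partner, read 59.3 and 56.0. Itgb8 and Itgb6, partners of αv that activate latent TGF-beta in epithelia, were lower. Itgb8 read 36.7 and 29.7, or 1.23-fold lower, and Itgb6 read 16.5 in saline and 13.0 after FGF18, below that array's median. Itga8, a chain of smooth muscle and mesenchyme, read 11.2 and 7.997, below both medians. Itgb3 and Itga2b, the chains of the platelet fibrinogen receptor, read 16.4 and 15.5, and 13.2 and 14.2.

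The α4 and α9 chains, which are close relatives, differed little. Itga9, a receptor for tenascin found in epithelia and muscle, read 21.1 and 21.9. Itga4, found on leukocytes, lay below both medians at 10.5 and 12.3.

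Leukocyte integrins were mostly dim, with 3 of 8 chains higher, 4 lower, 1 equal and a median of -0.03. Itgb2, the β chain of all the β2 integrins, read 17.0 in saline and 19.6 after FGF18, or 1.15-fold higher. Itgam, its partner on macrophages and neutrophils, read 12.1, below the saline array's median, and 15.7. Itgax, the partner on dendritic cells, read 10.7 and 9.39, and Itgal, that of lymphocytes, had an intensity of 10.2 on both arrays. Itgad read 7.16 and 6.72, and Itgb2l, a gene related to Itgb2, read 7.24 and 5.75. Itgb7 read 16.7 and 16.04, and Itgae, its partner on T cells of epithelia, read 6.52 and 6.598. The 5 macrophage and monocyte markers were all higher, with a median of 0.51 and summed intensities of 129 in saline and 174 after FGF18. The 5 T cell markers had a median of -0.14, with 4 lower and sums of 85.7 and 79.3. Their part in the values of Itgam and Itgb2 was not tested.

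By cell layer, the genes of dermis, vessel and muscle had the highest median difference, at 0.44 over 9 genes, of which 6 were higher and 3 lower. Those of basal epidermis and outer root sheath had a median of 0.17 over 9 genes, also with 6 higher and 3 lower. Those of leukocytes and platelets had a median of 0.01 over 10 genes, and those made in several layers one of 0.04 over 10 genes. The layers were assigned from general knowledge of skin and not from these data. Markers of the same cells did not all lie on the higher side. Fibroblast markers had a median of -0.38, with 4 of 6 lower and summed intensities of 1038 in saline and 946 after FGF18. Endothelial markers had a median of 0.21, with 3 of 5 higher and sums of 91.3 and 82.5. Of the higher ones, Tek and Vwf lay below both array medians, and 0.21 was the value of Vwf. Above both array medians, Pecam1 was 1.16-fold higher, Kdr 1.34-fold lower and Cdh5 1.58-fold lower. For markers of smooth muscle and pericytes the middle value was 0.25, with 3 of 5 higher and sums of 194 and 225. The part of all these markers in the medians of the layers was not tested.

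The basal keratinocyte markers, which check the layer that carries laminin-332 and α6β4, had a median of 0.14 over 3 genes. Col17a1, the collagen of hemidesmosomes, read 154 in saline and 203 after FGF18, or 1.31-fold higher, while Krt14, a basal keratin, was lower at 575 and 328, a difference of -0.81. Krt5 had no entry with a single gene name and is left out of these counts. Markers of differentiated keratinocytes were lower in 6 of 6, with a median of -1.69 and summed intensities of 13605 and 3710, and those of growing hair were higher in 6 of 6, with a median of 1.12 and sums of 1192 and 2408. Over 5 genes whose products join α6β4 in the hemidesmosome or attach to it, Krt14 and Col17a1 among them, the median was 0.09, with 3 higher and 2 lower, and Krt14 alone was past 1.5-fold. With clusters of several symbols included, which brought in Krt5, the median of this list was 0.03 over 6 genes. No marker of these lists was listed at 0. Their part in the values of the basal laminins and integrins was not tested.

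Of 22 further basement membrane genes, 15 were higher, 6 lower and 1 equal, with a median of 0.22, and 0 reached 1.5-fold in either direction. Of these, 17 lay at or above the median level. Over all genes at that level the median was 0.07, and 62.0% had a difference of 0 or more. After subtraction of the intensity trend the median of the 22 genes was 0.13. Whether they differed from other genes was not tested. Col4a1, a chain of the collagen IV sheet, was the highest, at 45.8 in saline and 67.9 after FGF18, or 1.47-fold higher. Frem2, which joins epidermis to dermis in the embryo, was the lowest above the median level, at 21.2 and 18.8. The other collagen IV chains and the heparan sulfate proteoglycans Agrn and Hspg2, which bind laminin or nidogen, were picked after their values were seen. Of the collagen IV chains, Col4a2 read 37.5 and 51.2 and Col4a5 was nearly equal at 26.5 and 26.0. Col4a3 read 15.8 on both arrays, and Col4a4 and Col4a6 lay below both medians, at 9.27 and 11.2, and 10.7 and 8.21. Agrn read 53.8 and 78.7 and Hspg2 38.3 and 46.9.

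Ligands of integrins other than laminins had a median of 0.29, with 12 of 17 higher, 3 lower and 2 equal. Of these, 11 lay at or above the median level, where the median over all genes was 0.07 and 62.0% had a difference of 0 or more. Thbs1, the matrix protein thrombospondin 1 that releases latent TGF-beta, read 15.0 in saline and 32.8 after FGF18, or 2.11-fold higher, and 1 of these 17 genes thus passed 2-fold, a step that 0.257% of all genes made upward. Fn1, fibronectin, read 39.9 and 64.5, or 1.60-fold higher, beside the 1.41-fold of its receptor chain Itga5. Vcam1, the ligand of α4β1 on vessels, read 22.8 and 35.3, or 1.52-fold higher. Cdh1, E-cadherin, which binds αEβ7, was the lowest above the median level, at 48.5 and 46.3. With a pseudocount of 16 the differences of Thbs1, Fn1 and Vcam1 were 0.66, 0.53 and 0.40, so that Thbs1 alone stayed past 1.5-fold.

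Integrin adaptors and signalling genes, the kinases Src and Ptk2b among them, had a median of 0.28, with 19 of 21 higher and 2 lower. After subtraction of the intensity trend the median was 0.19. Over all genes at or above the median level the median was 0.07, and 62.0% had a difference of 0 or more. Ilk, Lims2 and Ptk2 had no entry with a single gene name and are left out of these counts. With clusters of several symbols included, the list held 22 genes and its median was again 0.28. Tns1, tensin 1, which binds β tails, was the only one of the 21 past 1.5-fold, at 27.9 in saline and 47.6 after FGF18, or 1.68-fold higher. Actn1, the actin cross-linker α-actinin 1, was the lowest, at 123 and 97.4, with a difference of -0.33. With a pseudocount of 16 Tns1 had a difference of 0.54, short of 1.5-fold.

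**Figure D4:**
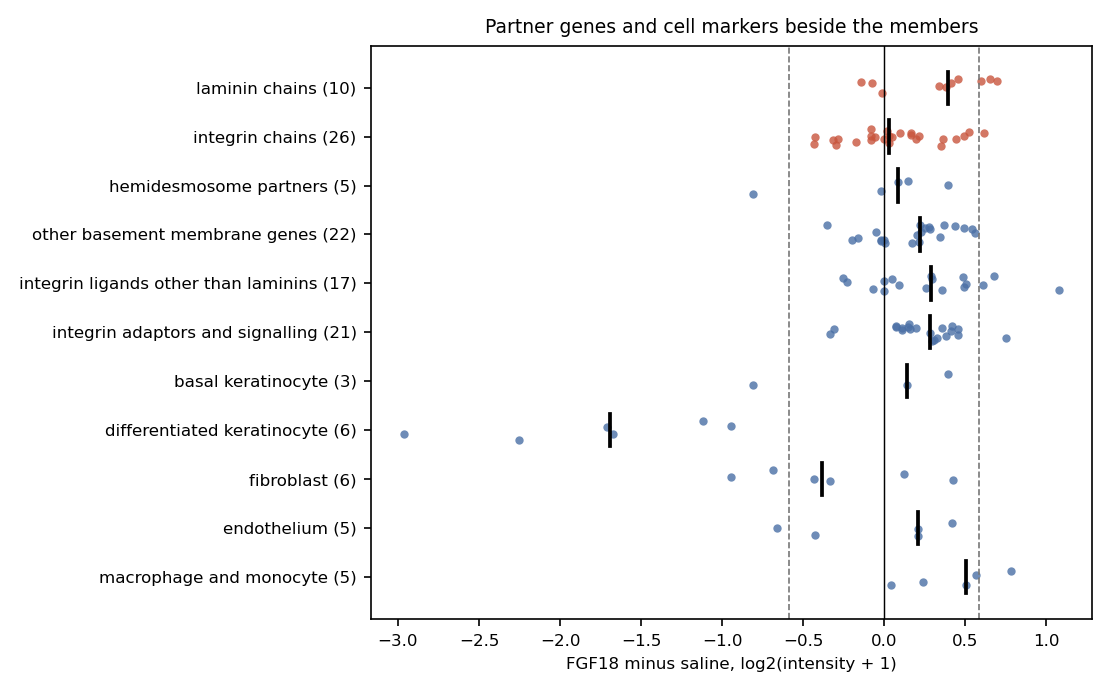
Differences FGF18 minus saline, log2(intensity + 1), for each measured gene of the laminin and integrin chains (red) and of partner and marker lists (blue), with the number of genes in brackets, a black bar at each median and dashed lines at 1.5-fold. Laminin chains have a median of 0.40 and integrin chains one of 0.03, beside -1.69 for differentiated keratinocytes and 0.28 for integrin adaptors and signalling genes.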

How the data were processed

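Each group has 1 array (Affymetrix Mouse Gene 2.0 ST), with groups taken from the labels. The deposited intensities were made by the authors with RMA in Affymetrix Expression Console, as named in the submitters' processing notes. RMA corrects background, normalizes arrays and summarises probes. For its version the sources used here give nothing. The values were judged linear from their range. Of 41345 clusters, the platform annotation gave 23521 exactly 1 symbol, 1814 several and 16010 none. Only the first were used, averaged per symbol on the log2(intensity + 1) scale. All 40 clusters of the set matched RefSeq's symbols (GRCm38.p6) by Entrez identifier. The number of arrays limits the precision, and no detection calls were used here.

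The members and lists were chosen with earlier results of these data known. Every member is named. Of each partner list, the highest and lowest gene at or above the median level (4.15 on the log2 scale) and each such gene at least 1.5-fold apart are named. The same rule covers marker lists, but these are given by counts and medians, with single markers only where a result turns on them. Marker lists were fixed for 13 cell types, and those not given in the report are in the closing observations. Alternatives were a pseudocount of 16 or none, centring on the median, subtraction of a loess trend (span 0.3), the brightest cluster, clusters with several symbols, filters at the median and the 75th percentile of level, a 2-fold threshold and the mean. The steps were tested on simulated data and run with Python 3.11.15, pandas 2.3.3 and statsmodels 0.14.6.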

Additional observations from a re-analysis of the deposited data

How the results depend on the processing

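No paired analysis was possible because each group has 1 array. The number of genes of the set at least 1.5-fold higher was 4, and it was 0 with a pseudocount of 16, 1 after subtraction of the loess trend and 0 at a 2-fold threshold, where the low number follows from the stricter limit. A larger pseudocount pulls differences of dim genes toward 0. The number at least 1.5-fold lower was 0 under every alternative run. Over members at or above the 75th percentile of level, which leaves 12 genes, the set's median difference was 0.40 instead of 0.07, and over the genes left of each list it was 0.17 for collagen receptors, 0.52 for the β1, α4 and α9 chains, 0.44 for nidogens and 0.52 for genes of several layers. The first 3 of these rest on 1 gene each. The medians of the leukocyte chains, hemidesmosome partners and genes of several layers changed sign under at least 1 alternative, with ranges of -0.03 to 0.20, -0.02 to 0.09 and -0.0047 to 0.52. The median of the laminin-511 and laminin-521 chains ranged from 0.50 to 0.64. With the loess trend subtracted, Itga6 and Itgav took the other sign and Itgal left 0. Itgav also changed sign with the brightest cluster and with a pseudocount of 16. No other member changed sign.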

Other observations

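Genes with similar symbols that encode no chain were left out of the set. Itgb1bp1, which binds the β1 tail, read 16.2 in saline and 18.2 after FGF18, with a difference of 0.16 that was 0.52 in the brighter of its 2 clusters. Itgb1bp2, the muscle protein melusin, read 52.6 and 49.5, Itgbl1 20.5 and 21.8, and Itgb3bp 8.07 and 7.48.

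Cell markers not described above were mostly dim or mixed. Neutrophil markers had 3 of 5 genes higher and a median of 0.30, and 0 of the 5 stood at or above the median level over genes. Platelet markers had 1 of 3 higher and a median of -0.12, Langerhans cell markers 1 of 2 higher and a median of -0.04, and nerve and Schwann cell markers 1 of 2 higher and a median of -0.03.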
